A study of Mus musculus with 4 samples.

Results

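Xenobiotic and aldehyde metabolism enzymes were compared between 2 cell populations sorted from mouse colonic epithelium. The members were taken by symbol: P450 enzymes of families Cyp1 to Cyp4 and the Gst, Mgst, Ugt, Sult, Aldh, Adh, Akr, Ces, Fmo and Nqo families, without Aldh18a1, whose enzyme makes an amino acid precursor. They came to 114 of the 14519 genes in the authors' table, and the rule reads symbols and no measured value, although it was drawn up with earlier results of these data known.

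The cells of interest were Reg4+ deep crypt secretory (DCS) cells, which carried a Reg4-dsRed reporter, in 2 libraries. They were set against Lgr5+ stem cells, which carried an Lgr5-GFP reporter, also in 2 libraries. Each reporter stands for the expression of its own gene, so a sort can take any cell in which that gene's reporter was on. Strain, age, sex and the number of animals are not stated in the labels. The submitters describe the 2 libraries of a population as biological replicates from separate sorts. Transcripts were counted by tags at their 3′ ends (CEL-seq), so that a value does not scale with transcript length, and values are RPM, a gene's reads relative to all reads of its library. The Lgr5+ libraries held 5205723 and 7955340 reads by the steps between RPM values, while each Reg4+ DCS column looked like a mean of 2 parts of 1890960 to 5523304 reads. Among the sort markers, Reg4 had 6187 and 5899 RPM in Reg4+ DCS libraries, against 796 and 363 RPM in Lgr5+ libraries. Lgr5 had 0.989 and 3.13 RPM in Reg4+ DCS libraries, against 46.5 and 48.8 RPM in Lgr5+ libraries. All 8 goblet cell markers listed (such as Muc2 and Spdef) were called higher in Reg4+ DCS.

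These enzymes make foreign and reactive compounds easier to remove. P450 and flavin monooxygenases oxidise them, carboxylesterases split their esters, dehydrogenases and reductases turn over alcohols, aldehydes, ketones and quinones, and transferases attach glutathione, sulfate or glucuronic acid. The colon lining meets such compounds from food and microbes, and several of the same enzymes also act on retinoids, steroids, fatty acids and aldehydes from lipid peroxidation.

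The summed level of all 114 genes was 4892 and 5379 RPM in Reg4+ DCS libraries, against 10889.7 and 9801 RPM in Lgr5+ libraries. The enzymes thus took 0.489% and 0.538% of all reads in Reg4+ DCS, against 1.09% and 0.980% in Lgr5+, and the sum was 2.01-fold lower in Reg4+ DCS. Adh1 alone held 1502 and 1397 RPM of it in Reg4+ DCS, against 4035 and 3363 RPM in Lgr5+. The fold of the sum was smaller with median-of-ratios scaling, described below. In such bulk samples, fewer cells of a type and less RNA per cell cannot be told apart. Of the 114 genes, 77 reached 5 RPM in at least 2 libraries and were tested with limma inside the fit of all 10183 genes that did so. At a Benjamini-Hochberg adjusted p under 0.05, 38 were called (49.4% of the tested members, where 34.1% of all tested genes were called). Of these, 32 were lower in Reg4+ DCS (41.6%, against 26.9% of all tested genes) and 6 were higher (7.79%, against 7.18%). The p-values measure the spread between these libraries. In all 38 the libraries of 1 population lay above both of the other and the log2 fold change was at least 1 in size. The calls were made from the same values, so this describes the called genes and is no further support.

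The size of the shift depended on the scale. As deposited, the tested members had a median log2 fold change (Reg4+ DCS minus Lgr5+, on log2(RPM + 1)) of -0.80, and all tested genes one of -0.47. With median-of-ratios scaling, which centres on the typical gene and not on the read total, it was -0.35 over the members and 0.02 over all genes. On that scale 24 members were called lower in Reg4+ DCS (31.2%, against 12.7% of all tested genes) and 9 higher (11.7%, against 15.6%), and the calls held for 24 of the 32 and 6 of the 6. Those that lost the call were Adh1, Akr1c13, Aldh16a1, Aldh1a7, Aldh1b1, Aldh5a1, Cyp2c69 and Cyp2s1. With edgeR on recovered reads, 26 members were called lower (33.8%, against 13.4% of all tested genes) and 9 higher (11.7%, against 13.7%). The calls held there for 26 of the 32 and 6 of the 6. Leaving out 1 library at a time gave 18 to 28 members lower and 2 to 7 higher in Reg4+ DCS. The 18 came without Lgr5+ replicate 1 (17.3% of all genes then tested were lower) and the 2 without Reg4+ DCS replicate 2 (3.5% were higher). Of the 32 members lower in Reg4+ DCS, 13 (40.6%, against 22.9% of all genes called lower) were under 5 RPM in both Reg4+ DCS libraries and so passed the filter through Lgr5+ alone. Of the 6 higher members, 3 (50%, against 14.9% of all genes called higher) passed through Reg4+ DCS alone. The 13 were Ces1d, Ces1e, Ces1f, Ces2a, Ces2g, Gsta3, Nqo1, Akr1b8, Aldh1a7, Cyp2c55, Cyp2c65, Cyp4f14 and Fmo1. The 3 were Aldh3b1, Aldh3b2 and Cyp2d37-ps. The direction of these genes was fixed by the filter, so that their counts are only a description. Without 1 Lgr5+ library 13 of the lower members went untested, and without 1 Reg4+ DCS library 3 of the higher members did. The call was lost in at least 1 of the 4 fits by 13 of the 38.

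**Figure D1:**
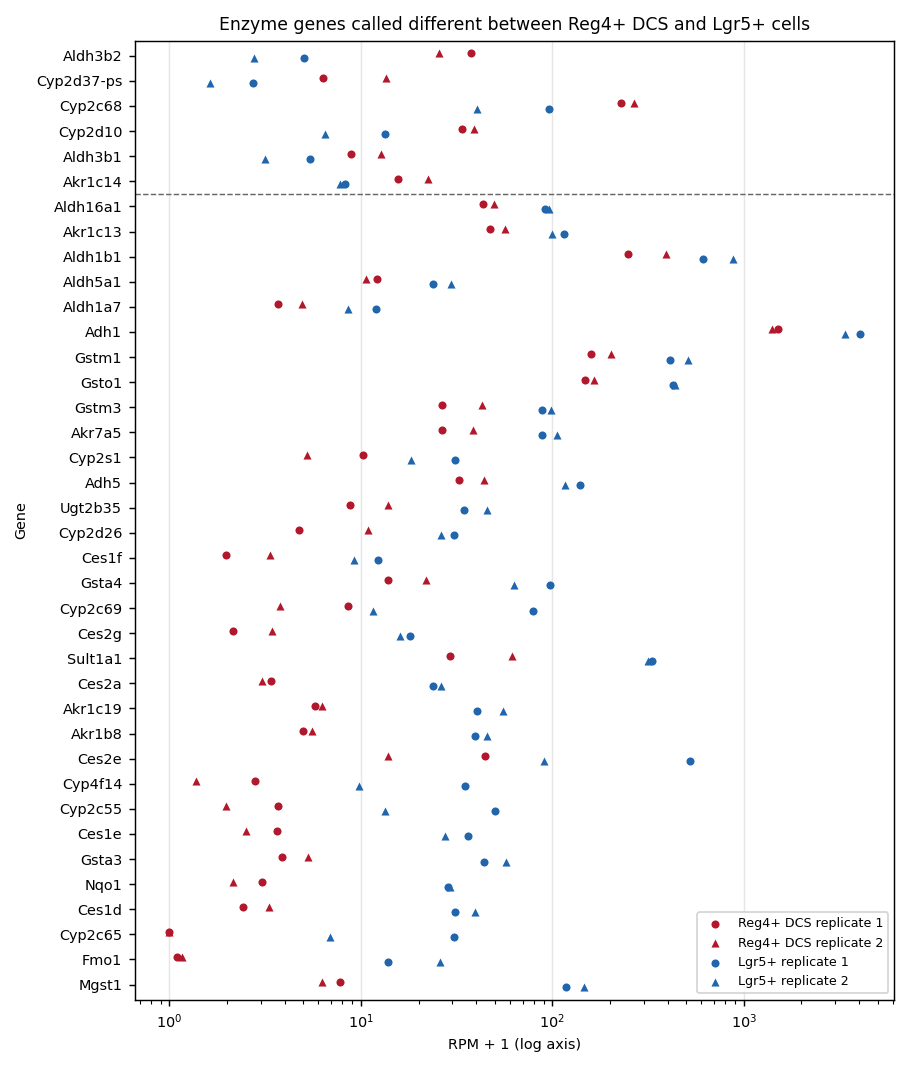
RPM + 1 (log axis) of the 38 called enzyme genes in each library, with Reg4+ DCS in red and Lgr5+ in blue, circles for replicate 1 and triangles for replicate 2. The 6 genes above the dashed line were higher in Reg4+ DCS and the 32 below it were lower, and in each the points of the populations do not overlap.

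The promoters of members were searched for the core sites of the factors that drive such enzymes, in windows of 300 bases (250 before and 50 after the start) from RefSeq on GRCm38.p6, on both strands. TGACNNNGC, the antioxidant response element core bound by Nrf2 with Maf partners, was in windows of 11 of 94 member genes (11.7%, against 14.0% of 27025 genes) and of 5 of 28 members lower in Reg4+ DCS (17.9%): Mgst1, Gsta3, Cyp2c65, Cyp4f14 and Akr1c19. TNGCGTG, the aryl hydrocarbon receptor core, was in windows of 7 of the 94 (7.45%, against 5.84% of all genes) and 0 of the 28. These shares describe letters in short windows, not binding. The 250 bases before the start are shown for a member of each direction, with the match in capitals. That of Gsta3 (13.8-fold lower in Reg4+ DCS), chr1:21240335-21240584 on the plus strand, holds TGACNNNGC 121 bases before the start. That of Cyp2c68 (3.67-fold higher), chr19:39741102-39741351 on the minus strand, holds TNGCGTG on the other strand 130 bases before the start.
Gsta3: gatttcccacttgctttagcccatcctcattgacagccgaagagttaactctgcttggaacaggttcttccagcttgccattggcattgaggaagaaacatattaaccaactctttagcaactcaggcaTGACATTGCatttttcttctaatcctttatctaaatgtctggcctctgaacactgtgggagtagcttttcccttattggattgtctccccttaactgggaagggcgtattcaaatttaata
Cyp2c68: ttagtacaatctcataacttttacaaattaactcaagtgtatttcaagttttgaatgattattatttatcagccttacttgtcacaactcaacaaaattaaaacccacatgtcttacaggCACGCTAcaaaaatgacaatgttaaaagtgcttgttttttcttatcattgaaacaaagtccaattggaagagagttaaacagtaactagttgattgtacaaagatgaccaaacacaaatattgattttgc

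Carboxylesterases, which hydrolyse esters and acylglycerols, had 6 of 9 members tested, each of which was called lower in Reg4+ DCS (100%, against 26.9% of all tested genes). Of these 6, 5 were under 5 RPM in both Reg4+ DCS libraries and passed the filter through Lgr5+ alone, so that their direction was fixed by the filter and the count is only a description. The family sum, which takes in all 9, was 59.4 and 26.4 RPM in Reg4+ DCS libraries, against 646 and 209.9 RPM in Lgr5+ libraries (9.97-fold lower in Reg4+ DCS). The genes lie in 2 stretches of chromosome 8 (GRCm38, GENCODE M21), the Ces1 genes within bases 93056728 to 93337308 and the Ces2 genes within bases 104734003 to 104969537. Among the Ces1 genes, Ces1d had 1.41 and 2.30 RPM in Reg4+ DCS libraries, against 30.2 and 38.6 RPM in Lgr5+ libraries (18.5-fold lower, log2 fold change -3.64 ± 0.33 SE, adjusted p = 0.000299). Its neighbour Ces1e had 2.67 and 1.52 RPM in Reg4+ DCS, against 35.3 and 26.5 RPM in Lgr5+ (14.8-fold lower, -3.38 ± 0.34, adjusted p = 0.000480). Ces1f had 0.981 and 2.34 RPM in Reg4+ DCS, against 11.3 and 8.17 RPM in Lgr5+ (5.87-fold lower, -2.05 ± 0.39, adjusted p = 0.00639). Leaving out Reg4+ DCS replicate 2 made the Ces1f fold 9.94, and leaving out replicate 1 made its adjusted p 0.0504. The remaining Ces1 genes stayed below the filter, and of them Ces1g was listed at 0 in each Reg4+ DCS library, against 4.80 and 4.53 RPM in Lgr5+. Ces1c went the other way in value, with 6.78 and 2.48 RPM in Reg4+ DCS, against 1.15 and 0.503 RPM in Lgr5+, and was not tested.

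The Ces2 genes are the intestinal branch of the family. The most abundant, Ces2e, had 43.4 and 12.8 RPM in Reg4+ DCS libraries, against 523 and 89.2 RPM in Lgr5+ libraries (10.9-fold lower, -3.14 ± 0.79, adjusted p = 0.0188). Lgr5+ replicate 1 was 5.86 times replicate 2 for this gene, and its fold moved with every library: 23.9 without Reg4+ DCS replicate 1, 7.05 without Reg4+ DCS replicate 2 (adjusted p = 0.122), 3.18 without Lgr5+ replicate 1 and 18.6 without Lgr5+ replicate 2. Ces2a had 2.40 and 2.06 RPM in Reg4+ DCS, against 22.7 and 25.1 RPM in Lgr5+ (10.7-fold lower, -2.95 ± 0.31, adjusted p = 0.000531). Its libraries differed little within each population. Ces2g had 1.16 and 2.42 RPM in Reg4+ DCS, against 17.1 and 15.1 RPM in Lgr5+ (9.01-fold lower, -2.65 ± 0.36, adjusted p = 0.00149), and 13.9-fold without Reg4+ DCS replicate 2. These genes resemble each other closely, as do the Cyp2c, Cyp2d, Akr1c, Gstm and Ugt2b genes below, and reads may have been split among them in the authors' counting.

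Glutathione transferases had 6 of 19 tested members lower in Reg4+ DCS (31.6%, near the 26.9% of all tested genes), 0 higher and 13 not called. The lowest log2 fold change of all tested members was that of Mgst1, a membrane-bound microsomal transferase that also reduces lipid peroxides. It had 6.75 and 5.29 RPM in Reg4+ DCS libraries, against 117 and 146 RPM in Lgr5+ libraries (21.8-fold lower, -4.23 ± 0.27, adjusted p = 0.000143). Its relatives did otherwise: Mgst3 had 262 and 169 RPM in Reg4+ DCS, against 539.8 and 296 RPM in Lgr5+ (-0.92 ± 0.34, adjusted p = 0.0660). Mgst2, which can also join glutathione to a leukotriene, had 113 and 145 RPM in Reg4+ DCS, against 83.2 and 91.4 RPM in Lgr5+ (0.55 ± 0.23, adjusted p = 0.0998), and was higher by test with median-of-ratios scaling (adjusted p = 0.00722) and with edgeR (adjusted p = 0.00924). The 3 microsomal genes thus ran from far lower in Reg4+ DCS to somewhat higher in value.

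In the alpha class, Gsta3 had 2.87 and 4.29 RPM in Reg4+ DCS libraries, against 43.0 and 55.9 RPM in Lgr5+ libraries (13.8-fold lower, -3.47 ± 0.32, adjusted p = 0.000299). Gsta4, which conjugates hydroxynonenal, had 12.8 and 20.9 RPM in Reg4+ DCS, against 95.7 and 62.3 RPM in Lgr5+ (4.69-fold lower, -2.17 ± 0.33, adjusted p = 0.00245). Both tested alpha genes were thus lower in Reg4+ DCS. Gsto1, the omega form that reduces dehydroascorbate, had 147 and 164 RPM in Reg4+ DCS, against 424 and 436 RPM in Lgr5+ (2.77-fold lower, -1.46 ± 0.21, adjusted p = 0.00205). In the mu class, Gstm1 had 157 and 202 RPM in Reg4+ DCS, against 411 and 512 RPM in Lgr5+ (2.57-fold lower, -1.36 ± 0.24, adjusted p = 0.00468), and its adjusted p was 0.0532 without Reg4+ DCS replicate 1. Gstm3 had 25.5 and 42.0 RPM in Reg4+ DCS, against 87.6 and 97.3 RPM in Lgr5+ (2.74-fold lower, -1.47 ± 0.29, adjusted p = 0.00734). The other 5 mu genes were not called, with log2 fold changes from -0.79 (Gstm6) to -0.03 (Gstm5), and the signs of Gstm4 and Gstm5 were positive with median-of-ratios scaling and edgeR.

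No theta, zeta or pi gene was called on the RPM scale. Gstt3 had 138 and 139.9 RPM in Reg4+ DCS libraries, against 144 and 170.3 RPM in Lgr5+ libraries (-0.17 ± 0.22, adjusted p = 0.558). Gstz1, which also serves tyrosine breakdown, had 17.3 and 21.9 RPM in Reg4+ DCS, against 23.1 and 34.8 RPM in Lgr5+ (-0.52 ± 0.31, adjusted p = 0.216). Gstp1 overlapped, with 15.1 and 11.2 RPM in Reg4+ DCS, against 20.9 and 12.8 RPM in Lgr5+ (-0.31 ± 0.34, adjusted p = 0.493). Its near copy Gstp2 had 7.66 and 7.68 RPM in Reg4+ DCS, against 4.42 and 4.65 RPM in Lgr5+ (0.65 ± 0.32, adjusted p = 0.142), and was higher by test with median-of-ratios scaling (adjusted p = 0.0314) and with edgeR (adjusted p = 0.0461). The signs of Gstp1 and Gstt3 were positive with both of these, so no direction is given for them.

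**Figure D2:**
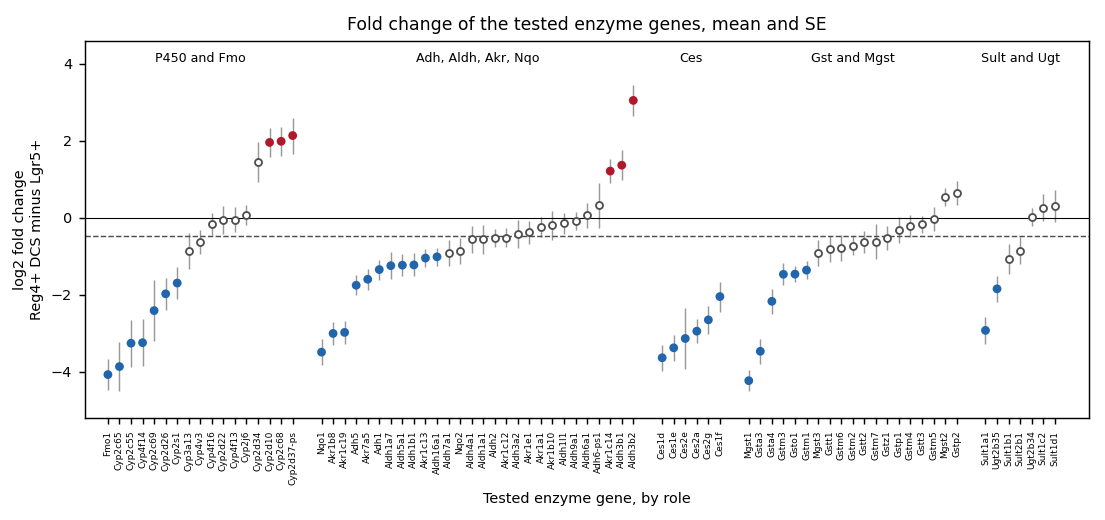
Log2 fold change (Reg4+ DCS minus Lgr5+, on log2(RPM + 1)) of the 77 tested enzyme genes by role, with bars for 1 SE. Red points were called higher and blue points lower in Reg4+ DCS, open points were not called, and the dashed line is the median of all tested genes at -0.47. The 6 tested Ces genes, 5 of which passed the filter through Lgr5+ alone, lie in the lower part, while P450 genes lie on both sides of 0.

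Among the 28 tested genes for alcohols, aldehydes, ketones and quinones, 11 were lower in Reg4+ DCS (39.3%, against 26.9% of all tested genes), 3 were higher (10.7%, against 7.18%) and 14 were not called. Of these, Nqo1, Akr1b8 and Aldh1a7 were under 5 RPM in both Reg4+ DCS libraries, and Aldh3b1 and Aldh3b2 in both Lgr5+ libraries. They passed the filter through 1 population alone, so that their direction was fixed by the filter. The most abundant of all members was Adh1, the classical alcohol dehydrogenase that acts on ethanol and retinol. It had 1502 and 1397 RPM in Reg4+ DCS libraries, against 4035 and 3363 RPM in Lgr5+ libraries (2.55-fold lower, -1.35 ± 0.26, adjusted p = 0.00679). Its call was lost when a Reg4+ DCS library was left out, with an adjusted p of 0.0802 without replicate 1 and 0.0743 without replicate 2. Adh5, which clears formaldehyde bound to glutathione, had 31.7 and 42.7 RPM in Reg4+ DCS, against 139 and 115 RPM in Lgr5+ (3.41-fold lower, -1.75 ± 0.25, adjusted p = 0.00201). The pseudogene Adh6-ps1 overlapped. Nqo1, a quinone reductase and a textbook target of the Nrf2 factor, had 2.04 and 1.15 RPM in Reg4+ DCS, against 27.5 and 28.0 RPM in Lgr5+ (17.4-fold lower, -3.49 ± 0.33, adjusted p = 0.000341). Nqo2 was not called, with 3.31 and 5.03 RPM in Reg4+ DCS, against 7.49 and 9.05 RPM in Lgr5+ (-0.86 ± 0.34, adjusted p = 0.0841).

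The aldo-keto reductases had 4 of 9 tested members lower in Reg4+ DCS (44.4%, against 26.9% of all tested genes) and 1 higher (11.1%, against 7.18%). Of the lower ones, Akr1b8 passed the filter through Lgr5+ alone. Akr1b8, which reduces aldehydes and retinal, had 3.99 and 4.58 RPM in Reg4+ DCS libraries, against 38.6 and 44.4 RPM in Lgr5+ libraries (9.68-fold lower, -3.01 ± 0.29, adjusted p = 0.000363). Akr7a5, which reduces succinic semialdehyde, had 25.5 and 37.3 RPM in Reg4+ DCS, against 86.8 and 105 RPM in Lgr5+ (3.05-fold lower, -1.60 ± 0.27, adjusted p = 0.00390). The Akr1c genes, hydroxysteroid dehydrogenases that lie within bases 4049011 to 4279433 of chromosome 13, moved in both directions. Akr1c19 had 4.73 and 5.27 RPM in Reg4+ DCS, against 39.4 and 54.3 RPM in Lgr5+ (9.36-fold lower, -2.98 ± 0.30, adjusted p = 0.000468). Akr1c13 had 46.2 and 55.7 RPM in Reg4+ DCS, against 114 and 98.3 RPM in Lgr5+ (2.08-fold lower, -1.05 ± 0.24, adjusted p = 0.0125, and 0.0766 without Reg4+ DCS replicate 1). Akr1c14 was the 1 that was higher, with 14.5 and 21.4 RPM in Reg4+ DCS, against 7.30 and 6.79 RPM in Lgr5+ (2.55-fold higher, 1.21 ± 0.32, adjusted p = 0.0225). Its adjusted p was 0.0917 without Reg4+ DCS replicate 2 and 0.0590 without Lgr5+ replicate 2. Akr1a1, the general aldehyde reductase, overlapped, with 212 and 292 RPM in Reg4+ DCS, against 253 and 343 RPM in Lgr5+ (-0.24 ± 0.26, adjusted p = 0.488), and its sign was positive with median-of-ratios scaling and edgeR.

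Aldehyde dehydrogenases had 4 of 14 tested members lower in Reg4+ DCS (28.6%, near the 26.9% of all tested genes) and 2 higher (14.3%, against 7.18%). Aldh1a7 among the lower ones passed the filter through Lgr5+ alone, and both higher ones passed through Reg4+ DCS alone. Aldh3b2, which oxidises long-chain aldehydes at lipid droplets in mice, had 36.4 and 24.5 RPM in Reg4+ DCS libraries, against 4.03 and 1.76 RPM in Lgr5+ libraries (10.5-fold higher, 3.05 ± 0.39, adjusted p = 0.00120, and 17.3-fold without Lgr5+ replicate 1). It had the highest fold toward Reg4+ DCS of the called members. Its neighbour Aldh3b1, which acts on like aldehydes at the plasma membrane, had 7.85 and 11.8 RPM in Reg4+ DCS, against 4.42 and 2.14 RPM in Lgr5+ (2.99-fold higher, 1.37 ± 0.39, adjusted p = 0.0308). The Aldh3b1 fold was 4.59 without Lgr5+ replicate 1, and its adjusted p was 0.190 without Lgr5+ replicate 2. The pair lies within bases 3913491 to 3981646 of chromosome 19, on opposite strands. With 1 Reg4+ DCS library left out, neither of them reached the filter.

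The aldehyde dehydrogenases that were lower differed less. Aldh1b1, a mitochondrial form known from crypt base cells of the gut, had 247 and 392 RPM in Reg4+ DCS libraries, against 607 and 874 RPM in Lgr5+ libraries (2.32-fold lower, -1.23 ± 0.30, adjusted p = 0.0171). Aldh5a1, which clears succinic semialdehyde, had 11.1 and 9.62 RPM in Reg4+ DCS, against 22.9 and 28.7 RPM in Lgr5+ (2.49-fold lower, -1.23 ± 0.29, adjusted p = 0.0149). Both lost the call in single-library omissions: the adjusted p of Aldh1b1 was 0.142 without Reg4+ DCS replicate 1, and that of Aldh5a1 was 0.0525 and 0.0535 without Reg4+ DCS replicates 1 and 2 and 0.0779 without Lgr5+ replicate 2. Aldh1a7, a close relative of the retinal-oxidising Aldh1a1, had 2.69 and 3.93 RPM in Reg4+ DCS, against 10.9 and 7.54 RPM in Lgr5+ (2.80-fold lower, -1.24 ± 0.36, adjusted p = 0.0294, and 0.146 without Reg4+ DCS replicate 1). Aldh16a1 had 42.3 and 48.6 RPM in Reg4+ DCS, against 90.5 and 94.8 RPM in Lgr5+ (2.04-fold lower, -1.01 ± 0.23, adjusted p = 0.0125, and 0.0713 without Reg4+ DCS replicate 1). Aldh2, the mitochondrial enzyme for acetaldehyde, was not called, with 421 and 546 RPM in Reg4+ DCS, against 720.0 and 659 RPM in Lgr5+ (-0.52 ± 0.24, adjusted p = 0.120). Its log2 fold change lay near the median of all tested genes, as did those of Aldh1a1 (-0.56) and Aldh4a1 (-0.56).

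P450 and flavin monooxygenase genes moved in both directions, with 7 of 17 tested members lower in Reg4+ DCS (41.2%, against 26.9% of all tested genes), 3 higher (17.6%, against 7.18%) and 7 not called. Fmo1, Cyp2c55, Cyp2c65 and Cyp4f14 were under 5 RPM in both Reg4+ DCS libraries, and Cyp2d37-ps in both Lgr5+ libraries. They passed the filter through 1 population alone, so that their direction was fixed by the filter and the counts are only a description. The Cyp2 family sum overlapped between populations, at 396 and 475 RPM in Reg4+ DCS libraries, against 431 and 173 RPM in Lgr5+ libraries. With median-of-ratios scaling the sum was higher in both Reg4+ DCS libraries. Within the family, Cyp2c68 was higher, with 227 and 267 RPM in Reg4+ DCS, against 95.3 and 39.3 RPM in Lgr5+ (3.67-fold higher, 1.99 ± 0.38, adjusted p = 0.00660, and 6.27-fold without Lgr5+ replicate 1). The 3 other tested Cyp2c genes, which lie with it between bases 39007019 and 39886799 of chromosome 19, were lower. Cyp2c55, a colon P450 that oxidises arachidonic acid, had 2.69 and 0.985 RPM in Reg4+ DCS, against 49.4 and 12.3 RPM in Lgr5+ (16.8-fold lower, -3.26 ± 0.61, adjusted p = 0.00583). Its fold was 31.3 without Reg4+ DCS replicate 1, 6.71 without Lgr5+ replicate 1 and 26.9 without Lgr5+ replicate 2. Cyp2c65 was listed at 0 in each Reg4+ DCS library, against 29.8 and 5.91 RPM in Lgr5+ (adjusted p = 0.00336), and no fold is given. Cyp2c69 had 7.57 and 2.76 RPM in Reg4+ DCS, against 78.0 and 10.6 RPM in Lgr5+ (8.57-fold lower, -2.41 ± 0.80, adjusted p = 0.0492). The Cyp2c69 call ended without Reg4+ DCS replicate 1 (16.0-fold, adjusted p = 0.107), Reg4+ DCS replicate 2 (adjusted p = 0.228) or Lgr5+ replicate 1 (2.04-fold, adjusted p = 0.197), while the fold was 15.1 without Lgr5+ replicate 2.

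The Cyp2d genes, within bases 82370527 to 82794294 of chromosome 15, also split. Cyp2d10 had 32.8 and 37.7 RPM in Reg4+ DCS libraries, against 12.3 and 5.53 RPM in Lgr5+ libraries (3.96-fold higher, 1.96 ± 0.38, adjusted p = 0.00663, and 6.38-fold without Lgr5+ replicate 1). The pseudogene Cyp2d37-ps had 5.35 and 12.5 RPM in Reg4+ DCS, against 1.73 and 0.629 RPM in Lgr5+ (7.58-fold higher, 2.14 ± 0.47, adjusted p = 0.0109). The fold of Cyp2d37-ps was 4.54 without Reg4+ DCS replicate 2 and 14.2 without Lgr5+ replicate 1. Cyp2d34 had the same direction in value, with 59.9 and 84.4 RPM in Reg4+ DCS, against 48.2 and 13.3 RPM in Lgr5+ (1.44 ± 0.52, adjusted p = 0.0612), and was called with median-of-ratios scaling (adjusted p = 0.0176) and edgeR (adjusted p = 0.0441). Cyp2d26 was lower, with 3.75 and 9.93 RPM in Reg4+ DCS, against 29.6 and 25.3 RPM in Lgr5+ (4.01-fold lower, -1.98 ± 0.42, adjusted p = 0.00946, and 7.31-fold without Reg4+ DCS replicate 2). Cyp2d22 overlapped, with 4.36 and 5.36 RPM in Reg4+ DCS, against 6.34 and 4.02 RPM in Lgr5+, and its sign turned with the scaling.

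Outside these clusters, Fmo1, which oxidises nitrogen and sulfur groups, had the fewest reads in Reg4+ DCS cells among called members above 0. Its level was 0.0905 and 0.166 RPM in Reg4+ DCS libraries, 1 read in each, against 12.9 and 25.0 RPM in Lgr5+ libraries, or 67 and 199 reads (adjusted p = 0.000392). The rate of summed reads was 129.98-fold lower in Reg4+ DCS, with an exact 95% interval of 35.6 to 1079 that covers counting error only. Cyp4f14, which hydroxylates leukotrienes and vitamin E, had 1.78 and 0.371 RPM in Reg4+ DCS, against 34.0 and 8.80 RPM in Lgr5+ (19.9-fold lower, -3.25 ± 0.61, adjusted p = 0.00608). Its fold moved with every library, at 57.7 without Reg4+ DCS replicate 1, 12.0 without Reg4+ DCS replicate 2, 8.17 without Lgr5+ replicate 1 and 31.6 without Lgr5+ replicate 2. Cyp2s1, a P450 of epithelia, had 9.25 and 4.25 RPM in Reg4+ DCS, against 30.0 and 17.2 RPM in Lgr5+ (3.50-fold lower, -1.70 ± 0.42, adjusted p = 0.0179). Its fold was 5.55 without Reg4+ DCS replicate 1, and omitting Reg4+ DCS replicate 2 or Lgr5+ replicate 1 ended the call, at adjusted p-values of 0.0812 and 0.0562. Cyp4f13 overlapped, with 31.4 and 52.6 RPM in Reg4+ DCS, against 49.9 and 35.6 RPM in Lgr5+ (-0.05 ± 0.32, adjusted p = 0.914). Cyp3a13, the member of its family in the table, also overlapped, with 5.72 and 7.60 RPM in Reg4+ DCS, against 21.5 and 7.54 RPM in Lgr5+ (-0.87 ± 0.47, adjusted p = 0.178). Cyp1a1, the textbook target of the aryl hydrocarbon receptor, was listed at 0 in each Reg4+ DCS library, against 0.192 and 0.126 RPM in Lgr5+, 1 read in each, so no difference was detectable.

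Sulfate and glucuronide transfer had 2 of 7 tested members lower in Reg4+ DCS (28.6%, near the 26.9% of all tested genes) and 5 not called. Sult1a1, the phenol sulfotransferase, had 28.2 and 60.9 RPM in Reg4+ DCS libraries, against 329 and 315 RPM in Lgr5+ libraries (7.23-fold lower, -2.93 ± 0.34, adjusted p = 0.000857, and 11.4-fold without Reg4+ DCS replicate 2). Ugt2b35 had 7.75 and 12.8 RPM in Reg4+ DCS, against 33.4 and 44.4 RPM in Lgr5+ (3.79-fold lower, -1.85 ± 0.33, adjusted p = 0.00473). Its relative Ugt2b34, also a glucuronosyltransferase, overlapped, with 78.8 and 95.4 RPM in Reg4+ DCS, against 81.1 and 90.0 RPM in Lgr5+ (0.02 ± 0.23, adjusted p = 0.949). Of the other sulfotransferases, Sult1b1 had the lowest log2 fold change among all members not called (-1.07 ± 0.38, adjusted p = 0.0614), and Sult1d1 had 41.6 and 38.4 RPM in Reg4+ DCS, against 52.1 and 19.9 RPM in Lgr5+.

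**Figure D3:**
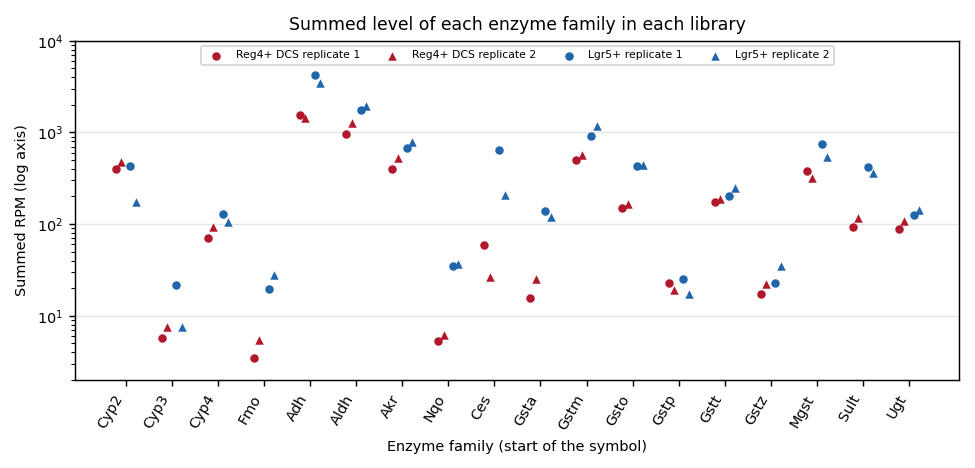
Summed RPM (log axis) of each enzyme family in each library, Reg4+ DCS in red and Lgr5+ in blue. The Ces sums were 59.4 and 26.4 RPM in Reg4+ DCS and 646 and 209.9 RPM in Lgr5+, while the Cyp2 and Gstp sums overlap; Cyp1 is left out because its Reg4+ DCS sums were 0.

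Summed by family as RPM, 16 of 19 families were lower in both Reg4+ DCS libraries, 0 were higher and Cyp2, Cyp3 and Gstp overlapped. With median-of-ratios scaling 10 were lower, and the Cyp2 sum was higher in both Reg4+ DCS libraries. Both counts of lower families take in Cyp1. Its 1 gene, Cyp1a1, was at 0 in Reg4+ DCS against 1 read in each Lgr5+ library, so no difference was detectable there. Over single tested genes, 49 members were lower in both Reg4+ DCS libraries than in either Lgr5+ library (63.6%, against 56.2% of all tested genes), 9 were higher (11.7%, against 16.1%) and 19 overlapped. The 39 tested members that were not called had log2 fold changes from -1.07 to 1.44, and 19 of them lay within 0.5 of 0. Below the filter were 37 members, none above 10.2 RPM in any library. Of all 114 members, 16 were listed at 0 in each Reg4+ DCS library (14.0%, against 11.3% of all genes in the table) and 2, Aldh1a3 and Cyp2d13, in each Lgr5+ library.

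Some members differed widely between the Lgr5+ libraries. Of the 32 members lower in Reg4+ DCS, 27 had an Lgr5+ replicate 1 within 0.5 to 2 times replicate 2. The other 5, Cyp2c69 (7.39 times), Ces2e (5.86 times), Cyp2c65 (5.04 times), Cyp2c55 (4.01 times) and Cyp4f14 (3.86 times), had a replicate 1 at least 3 times replicate 2. Over all tested members 7 had such a ratio (9.09%), as did 239 of all tested genes (2.35%). Markers of absorptive colonocytes showed the same ratio: of 13 in the table other than Cyp2c55, 10 had it, with a median of 4.35 and a range of 0.814 to 10.7. Their summed level was 520.3 and 625.8 RPM in Reg4+ DCS libraries, against 1760 and 718.8 RPM in Lgr5+ libraries. Of the 13, 9 were lower in both Reg4+ DCS libraries, as were 56.2% of all tested genes. One of them, Guca2a, was called higher in Reg4+ DCS, with 339 and 505 RPM in Reg4+ DCS, against 211 and 67.5 RPM in Lgr5+, and without it the sums were 182 and 121 RPM in Reg4+ DCS, against 1549 and 651 RPM in Lgr5+. Tuft cell markers had it in 8 of 9, with sums of 3.19 and 2.52 RPM in Reg4+ DCS, against 1139.7 and 323.9 RPM in Lgr5+. Stem and progenitor markers had a median ratio of 0.947. Goblet markers had a median ratio of 2.28 (range 1.42 to 6.19), and the 6 members higher in Reg4+ DCS one of 2.26 (range 1.08 to 2.75). The leukocyte marker Ptprc was listed at 0 in each Reg4+ DCS library, against 40.1 and 9.55 RPM in Lgr5+, and the other 4 leukocyte markers summed to 0.0905 and 0.166 RPM in Reg4+ DCS, against 5.57 and 3.27 RPM in Lgr5+. Cells of these types in the Lgr5+ sort were not measured apart, and their part in the results was not tested.

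**Figure D4:**
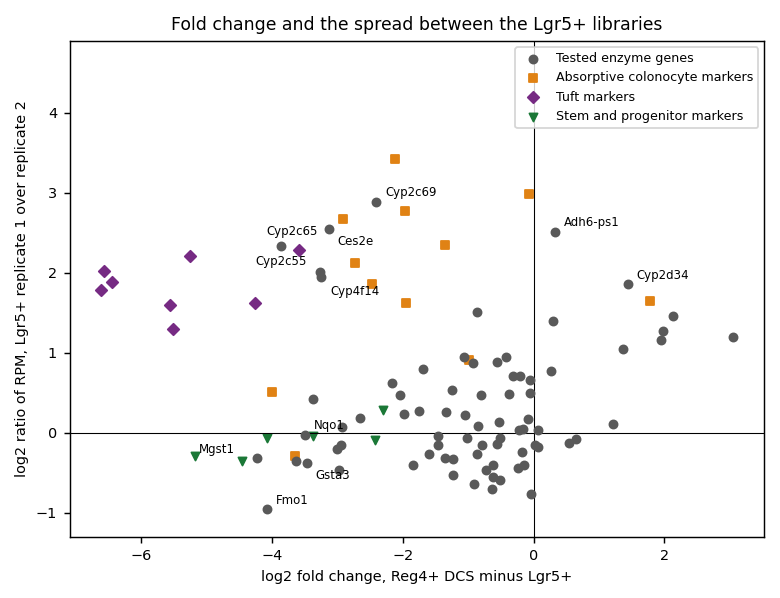
Log2 ratio of RPM between Lgr5+ replicates 1 and 2 (vertical) against the log2 fold change of Reg4+ DCS minus Lgr5+ (horizontal), for tested enzyme genes (grey circles) and markers of absorptive (squares), tuft (diamonds) and stem or progenitor cells (triangles). Mgst1, Nqo1, Gsta3 and Fmo1 lie near or below 0 on the vertical axis, as the stem and progenitor markers do, while Cyp2c69, Ces2e, Cyp2c65, Cyp2c55 and Cyp4f14 lie among the absorptive and tuft markers.

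The genes that sense these compounds and supply cofactors were read from a list of 83 genes, 72 of them in the table and 62 tested. Of those, 18 were lower in Reg4+ DCS (29.0%, near the 26.9% of all tested genes) and 2 higher (3.23%, against 7.18%), with a median log2 fold change of -0.46 (-0.47 over all tested genes). With median-of-ratios scaling 12 were lower (19.4%, against 12.7% of all tested genes) and 7 higher (11.3%, against 15.6%). Of the 18 lower on the RPM scale, Alox5ap, Ltc4s, Hpgds, Abcc5 and Abcg2 were under 5 RPM in both Reg4+ DCS libraries. These passed the filter through Lgr5+ alone, so that their direction was fixed by the filter. Among the 14 receptors and factors tested, 1 was lower (7.14%, against 26.9% of all tested genes) and 2 were higher (14.3%, against 7.18%). The 2 higher were Mafk and Maff, small Maf proteins that pair with Nrf2. Mafk had 86.1 and 104 RPM in Reg4+ DCS libraries, against 59.4 and 43.5 RPM in Lgr5+ libraries (1.85-fold higher, 0.89 ± 0.26, adjusted p = 0.0311). Maff had 70.3 and 56.9 RPM in Reg4+ DCS, against 38.8 and 27.3 RPM in Lgr5+ (1.93-fold higher, 0.94 ± 0.27, adjusted p = 0.0320). Both calls were lost without Reg4+ DCS replicate 1 (adjusted p = 0.0791 for Mafk and 0.158 for Maff), Reg4+ DCS replicate 2 (0.120 and 0.0591) or Lgr5+ replicate 2 (0.156 and 0.157). The sensors themselves were not called: Nfe2l2, which encodes Nrf2, averaged 103 ± 20.8 RPM in Reg4+ DCS and 169 ± 60.6 RPM in Lgr5+ (SD, n = 2 each, log2 fold change -0.67 ± 0.30, adjusted p = 0.112). The adjusted p was 0.419 for its inhibitor Keap1, 0.215 for Ahr, the aryl hydrocarbon receptor, and 0.0613 for Nr1i2, the pregnane X receptor.

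The glutathione and thioredoxin genes had 5 of 9 tested members lower in Reg4+ DCS (55.6%, against 26.9% of all tested genes). Of them, Txnrd1 and Gclc lost the call with median-of-ratios scaling (adjusted p = 0.0828 and 0.101). Gss, the synthetase that completes glutathione, had 53.3 and 71.9 RPM in Reg4+ DCS libraries, against 219 and 295 RPM in Lgr5+ libraries (4.11-fold lower, -2.02 ± 0.26, adjusted p = 0.00121). Gclm, the modifier subunit of the rate-limiting ligase, had 18.1 and 20.8 RPM in Reg4+ DCS, against 75.1 and 75.5 RPM in Lgr5+ (3.88-fold lower, -1.90 ± 0.24, adjusted p = 0.00119). Gsr, which recycles oxidised glutathione, had 91.8 and 66.7 RPM in Reg4+ DCS, against 228 and 285 RPM in Lgr5+ (3.24-fold lower, -1.69 ± 0.25, adjusted p = 0.00226). These 3 stayed called without any 1 library and with either other method. Slc7a11, which imports cystine for glutathione synthesis, had the highest log2 fold change of the list but was not called, with 5.26 and 5.96 RPM in Reg4+ DCS, against 1.73 and 2.77 RPM in Lgr5+ (1.04 ± 0.35, adjusted p = 0.0516). It was called higher with median-of-ratios scaling (adjusted p = 0.0172) and edgeR (adjusted p = 0.0233). The carbonyl reductase gene Cbr3 had 13.5 and 16.7 RPM in Reg4+ DCS, against 50.9 and 59.7 RPM in Lgr5+ (3.65-fold lower, -1.81 ± 0.27, adjusted p = 0.00215). Por, which passes electrons to microsomal P450 enzymes, was not called, with 68.2 and 64.8 RPM in Reg4+ DCS, against 102 and 81.7 RPM in Lgr5+ (-0.45 ± 0.23, adjusted p = 0.163).

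The lowest genes of the list relative to Lgr5+ cells make eicosanoids or export conjugates. Alox5ap, the activator of leukotriene synthesis and also a tuft cell marker, was listed at 0 in each Reg4+ DCS library, against 80.3 and 26.6 RPM in Lgr5+ libraries (adjusted p = 0.000280). Ltc4s, which joins glutathione to a leukotriene, had 1.42 and 2.35 RPM in Reg4+ DCS, against 69.2 and 31.2 RPM in Lgr5+ (26.6-fold lower, -4.06 ± 0.42, adjusted p = 0.000514). Hpgds, a prostaglandin synthase, had 2.08 and 1.33 RPM in Reg4+ DCS, against 42.3 and 9.68 RPM in Lgr5+ (15.2-fold lower, -3.00 ± 0.60, adjusted p = 0.00764), and its adjusted p was 0.0513 and 0.0528 without Reg4+ DCS replicates 1 and 2. The efflux pump gene Abcc5 was listed at 0 in each Reg4+ DCS library, against 12.9 and 5.03 RPM in Lgr5+ (adjusted p = 0.00188). These 4 genes were under 5 RPM in both Reg4+ DCS libraries and passed the filter through Lgr5+ alone. Their direction was thus fixed by the filter, and their calls are only a description. For these 4 genes Lgr5+ replicate 1 was 3.01, 2.22, 4.37 and 2.56 times replicate 2. The tuft markers other than Alox5ap had 2.46 to 5.53 times, and Ltc4s lay below that range.

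**Figure D5:**
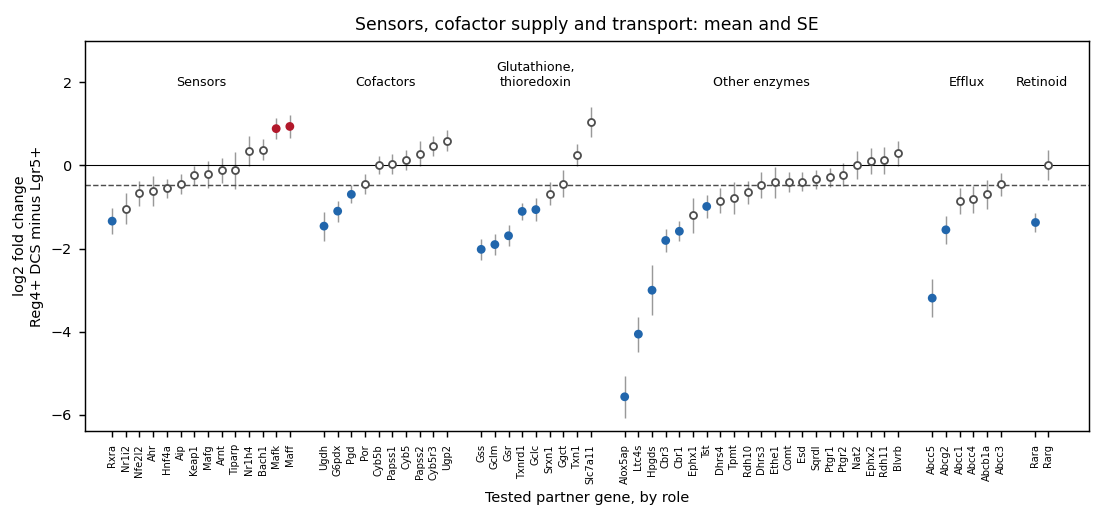
Log2 fold change (Reg4+ DCS minus Lgr5+, on log2(RPM + 1)) of the 62 tested partner genes by role, with bars for 1 SE, red for called higher and blue for called lower in Reg4+ DCS, open for not called, and the median of all tested genes at -0.47 dashed. Gss, Gclm and Gsr stand lowest among the glutathione genes, and Mafk and Maff are the red points.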

How the data were processed

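The authors deposited 1 table of RPM values (a gene's reads relative to the column total) for 14519 genes. Total RNA of cells collected in Trizol became CEL-seq libraries, per the labels' protocols. BWA (0.6.2-r126) and mm10 are named in the submitters' processing notes, and how genes were counted, and whether by molecular identifiers, is not stated there. All values in both Lgr5+ columns were whole multiples of 1 read (within 0.01 reads), worth 0.192 and 0.126 RPM. Reg4+ DCS values were decoded as means of 2 parts for 99.9% and 98.6% of genes, so their spread is one of averages.

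Genes with at least 5 RPM in at least 2 libraries were tested with limma 3.58.1 (R 4.3.3, eBayes with a trend) on log2(RPM + 1), with population as the only term and 2 libraries each. Folds are ratios of mean RPM, log2 fold changes are Reg4+ DCS minus Lgr5+ with their SE, and adding 1 understates the change of low genes. Coordinates come from GENCODE M21 for 112 of the 114 members, matched by symbol and chromosome. The fit was tested on simulated data. Alternatives were another scaling, pseudocount, filter, variance model, replicate block, each library left out and, chosen after the data were seen, edgeR 4.0.16 on recovered reads.

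The members and lists were chosen with earlier results of these data known. Full values are given for members called with a log2 fold change of at least 1 and populations apart, and for the most abundant of each family. For partner genes they are given for the called genes with the largest log2 fold changes, up to 8 in each direction, and other partners are named for their textbook role or, for Slc7a11, after its values were seen. Ces1c, Ces1g, Aldh1a3 and Cyp2d13, below the filter, were named after their values were seen.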

Additional observations from a re-analysis of the deposited data

How the results depend on the processing

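The counts of members lower and higher in Reg4+ DCS stayed within 1.5 times of 32 and 6 with a pseudocount of 0.5 or 5, without a filter, with a filter at 10 RPM, without a trend, with median-of-ratios scaling and with edgeR. Leaving out 1 library gave 18 to 28 lower and 2 to 7 higher. The lone library left in a population is then assumed to vary like the others. Of the partner genes, the 2 called higher became 7 with median-of-ratios scaling, 7 with edgeR and 0 to 2 with 1 library left out, and the 18 called lower became 11 to 16 with 1 library left out. The 16 families with a lower sum, with Cyp1 and its 1 read in each Lgr5+ library among them, became 10 with median-of-ratios scaling. On that scale the Cyp2 sum, which overlapped as RPM, was higher in both Reg4+ DCS libraries. With median-of-ratios scaling the sign turned to positive for 13 of 77 tested members and with edgeR for 12, of which 0 were called on the RPM scale. For the most abundant of their families, with median-of-ratios scaling and with edgeR, the log2 fold change was 0.26 and 0.17 for Akr1a1, 0.45 and 0.41 for Cyp4f13, 0.17 and 0.071 for Gstp1, and 0.33 and 0.31 for Gstt3. With 1 library left out it ran from -0.41 to 0.31 for Cyp4f13, from -0.65 to 0.021 for Gstp1 and from -0.11 to 0.16 for Ugt2b34. The cause was not tested. The labels do not say that a replicate number pairs libraries, and deviations of same-numbered libraries correlated at r = 0.21 across 10183 genes. A block for the replicate number gave 37 members lower (48.1%, against 34.7% of all tested genes) and 7 higher (9.09%, against 8.94%). With this block Mgst3 was called lower (adjusted p = 0.00145). No member below 1 read could be told from 0. That read was worth 0.192 and 0.126 RPM in Lgr5+ replicates 1 and 2. In the Reg4+ DCS columns, means of 2 parts, its worth depended on the part. For Fmo1 it was 0.0905 RPM in replicate 1 and 0.166 RPM in replicate 2.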
